A study of Homo sapiens with 6 samples.

Results

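Desmosomes are the junctions that rivet neighbouring epithelial cells together and hold the keratin filaments of each cell at the membrane. The 10 genes described here encode the desmosomal cadherins DSG2 and DSC2, the armadillo plaque proteins JUP (plakoglobin), PKP2 and PKP3 (plakophilins), the plaque linker DSP (desmoplakin) and the simple-epithelial keratins KRT8, KRT18, KRT19 and KRT20. They were chosen by name, with earlier results of these data known. Each name matched 1 of the 60612 genes of the deposited table, so all 10 were found. RNA-seq was done on HCT116 cells, an established line of human colorectal cancer cells, after 2 days with either the control siRNA si NC (3 samples) or an siRNA against PLOD3 (3 samples). The labels name no other treatment, allele or time for either group, both groups come from the single line HCT116, and the labels do not say whether the 3 samples of a group are separate cultures. The p-values therefore reflect the variation among these libraries alone, and that variation may be technical.

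In a desmosome, the cadherins of facing cells bind each other outside the cell, and their tails bind JUP and the plakophilins inside it. These in turn hold desmoplakin, whose far end binds the keratin filaments. Keratins form obligate pairs of 1 type I and 1 type II protein: KRT18, KRT19 and KRT20 are type I, and KRT8 is their type II partner. KRT8, KRT18 and KRT19 are found throughout the intestinal epithelium, while KRT20 marks its differentiated surface cells.

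The totals of the estimated counts ran from 55416555 to 76802428 per sample. PLOD3, the targeted gene, stood at 6.40, 7.16 and 6.22 FPKM (fragments scaled to gene length and sequencing depth) with si NC and at 3.44, 3.40 and 4.05 with PLOD3 siRNA, a log2 fold change of -0.85 (edgeR adjusted p = 0.00350). With the GC offset described further on, PLOD3 stood at -0.54 (edgeR adjusted p = 0.00662). FPKM summed over all genes to 386459 to 403665 with si NC and to 357209 to 377471 with PLOD3 siRNA. The samples carried an epithelial profile, with EPCAM, an epithelial surface protein, at 94.7 ± 3.54 FPKM with si NC and 101 ± 4.39 with PLOD3 siRNA (SD, n = 3 each). Of 7 epithelial markers (EPCAM, CDH1, CLDN4, CLDN7, KRT8, KRT18 and KRT19), 6 had a negative log2 fold change, and EPCAM stood highest at 0.10. By edgeR 3 were lower (CDH1, KRT18 and KRT19) and 0 higher, where 19.3% of all tested genes were lower and 16.2% higher. With the GC offset 1 was lower (CDH1) and 0 higher, against 14.4% and 13.0%. KRT8, KRT18 and KRT19 are themselves among the 10 genes, so these counts partly repeat the results below. CLDN4 varied widely within si NC, at 0.839, 33.3 and 32.5 FPKM. Of the markers of other cell types, DCN and LUM (fibroblasts), PTPRC and CD3E (leukocytes) and CDH5 (endothelium) had no reads in any sample. By edgeR both tested fibroblast markers were lower, COL1A1 (-0.50, adjusted p = 0.0158) and ACTA2 (-0.51, adjusted p = 0.0423). With the GC offset both lost the call (-0.20 and -0.45, edgeR adjusted p = 0.218 and 0.0653). The 1 tested leukocyte marker, CD68, stood at 0.96 and was not called by edgeR. It was called higher in DESeq2 (adjusted p = 0.0162) and in limma on log2(TPM + 1) (adjusted p = 0.0387). No endothelial marker was tested. Summed levels per sample were 5.09 to 5.82 FPKM for the 7 fibroblast genes with si NC and 3.52 to 4.0 with PLOD3 siRNA. They were 0.781 to 1.55 and 1.64 to 1.69 for the 5 leukocyte genes, and 0.0786 to 0.221 and 0.0796 to 0.119 for the 4 endothelial genes. The part of these genes in the results was not tested. In bulk RNA, fewer cells of a type and less RNA per cell cannot be told apart.

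JUP, DSP, KRT18, KRT19 and KRT20 were lower with PLOD3 siRNA, and none of the 10 genes was called higher. JUP and KRT20 had the largest falls, with and without the GC offset, and stood at 48.7% and 49.2% of the control FPKM. The cadherins DSG2 and DSC2 did not pass the test, nor did PKP2, PKP3 and KRT8. By edgeR's quasi-likelihood test (Benjamini-Hochberg adjusted over all 12000 tested genes, threshold 0.05), 5 of 10 were lower, where 19.3% of all tested genes were lower, and 0 of 10 were higher, where 16.2% of all tested genes were. Calls in either direction made up 35.5% of all tested genes. At an unadjusted p below 0.05, 6 of the 10 were lower and 0 higher, and DESeq2 called 5 lower and 0 higher. The count of 5 went to 3 without si NC replicate 1, 2 or 3 or without PLOD3 siRNA replicate 1, where DSP and KRT19 lost their calls. All 10 passed the filter on low values, a mean of at least 1 FPKM over the 6 samples. The median log2 fold change (PLOD3 siRNA relative to si NC) was -0.28 over the 10 genes and 0.0034 over all tested genes. In 6 of the 10 the FPKM of the 2 groups did not overlap and PLOD3 siRNA was lower, against 27.5% of all tested genes. In 0 of the 10 was PLOD3 siRNA higher without overlap, against 24.6% (either direction, 52.1%). Under the GC offset described further on, 3 of 10 were lower, JUP, DSP and KRT20, where 14.4% of all tested genes were, and 0 were higher, where 13.0% were. In limma on log2(TPM + 1), 3 were lower, JUP, KRT18 and KRT20, against 12.2% of all tested genes, and 0 were higher, against 20.6%.

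**Figure D1:**
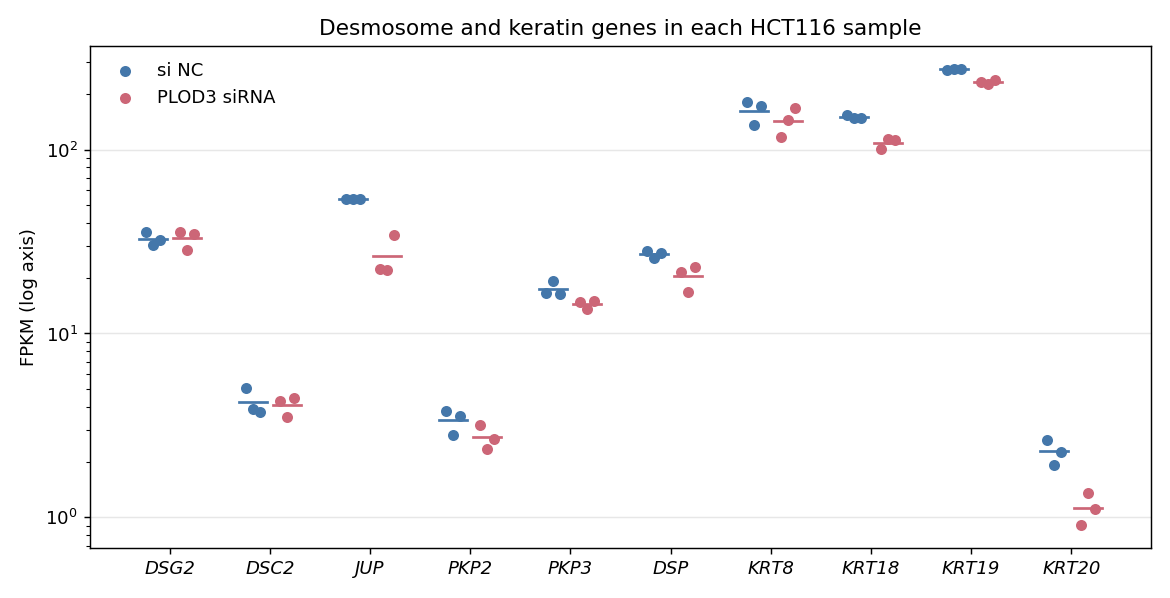
FPKM of the 10 genes (log axis) in the 3 si NC samples (blue) and the 3 PLOD3 siRNA samples (red), with a line at each group mean. JUP in si NC stayed between 53.6 and 54.2 while PLOD3 siRNA ran from 22.2 to 34.2, and the DSG2 points of the groups overlap.

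The reference promoters of 4 of these genes are shown because 3 of them (JUP, DSP, KRT20) were called lower with and without the GC offset and the fourth (DSG2) was called in neither. Each is the 250 bases before the annotated start in RefSeq (GRCh38.p14), written 5′ to 3′ on the gene's strand. Capitals mark matches, on either strand, to the GC box GGGCGG, the E-box CAGGTG that Snail and ZEB factors bind, CATAAA, the core of the site of the intestinal factor CDX2, and the TATA box TATAAA. Matches can touch or overlap, and then run together.
JUP, chr17:41786712-41786961, minus strand: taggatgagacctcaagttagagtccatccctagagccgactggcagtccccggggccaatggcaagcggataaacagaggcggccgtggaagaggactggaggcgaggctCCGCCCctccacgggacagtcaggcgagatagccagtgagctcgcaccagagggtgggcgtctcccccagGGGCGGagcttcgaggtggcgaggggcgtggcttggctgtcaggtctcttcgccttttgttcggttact
DSP, chr6:7541421-7541670, plus strand: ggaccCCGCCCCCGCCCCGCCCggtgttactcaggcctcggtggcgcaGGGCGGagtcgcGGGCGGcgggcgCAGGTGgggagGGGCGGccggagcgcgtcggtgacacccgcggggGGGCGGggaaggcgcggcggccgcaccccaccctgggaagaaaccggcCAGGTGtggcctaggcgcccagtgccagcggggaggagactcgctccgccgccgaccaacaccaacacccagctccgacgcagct
KRT20, chr17:40885243-40885492, minus strand: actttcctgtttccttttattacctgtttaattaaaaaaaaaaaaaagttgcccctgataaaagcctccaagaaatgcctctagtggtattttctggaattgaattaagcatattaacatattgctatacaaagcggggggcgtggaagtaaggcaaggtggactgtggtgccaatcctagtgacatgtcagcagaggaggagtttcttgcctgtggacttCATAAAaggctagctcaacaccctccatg
DSG2, chr18:31497927-31498176, plus strand: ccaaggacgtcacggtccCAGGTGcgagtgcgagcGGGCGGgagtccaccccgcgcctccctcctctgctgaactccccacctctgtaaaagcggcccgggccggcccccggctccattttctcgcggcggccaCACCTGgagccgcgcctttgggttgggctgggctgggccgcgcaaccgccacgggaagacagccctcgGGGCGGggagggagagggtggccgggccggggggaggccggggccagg

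The promoters of the genes that were lower differed in the matches they held. The DSP window was 78.0% GC with 7 GC box matches and 2 E-box matches, and that of DSG2 was 75.2% GC with 2 of each. The JUP window held 2 GC box matches and no E-box, and a second RefSeq start of JUP (chr17:41785977-41786226) held 2 E-box matches and no GC box. KRT20 was the AT-rich one, at 41.2% GC, with a single CATAAA match and none of the other motifs. Over 35116 RefSeq windows of the same length, 42.6% held the GC box, 17.5% the E-box, 9.64% CATAAA and 10.7% TATAAA. Windows were found for 6 of the 10 genes, also DSC2 and KRT8. Those of PKP2, PKP3, KRT18 and KRT19 were not used here. These matches describe the letters and were not tested as binding sites.

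Neither desmosomal cadherin passed the test. DSG2, the most widely expressed desmoglein (ENSG00000046604, chromosome 18, 31498177 to 31549008), stood at 35.5, 30.4 and 32.2 FPKM with si NC, against 35.6, 28.6 and 34.6 with PLOD3 siRNA. Its groups overlapped, and its log2 fold change was 0.01 with a 95% interval of -0.19 to 0.22 (edgeR adjusted p = 0.919). DSC2, the desmocollin it pairs with (chromosome 18, 31058840 to 31102421), was at 5.07, 3.87 and 3.75 and at 4.30, 3.53 and 4.47 FPKM. Its groups overlapped too, at -0.04 with an interval of -0.35 to 0.27 (edgeR adjusted p = 0.831). A fall of 0.35 in DSC2 or a rise of 0.22 in DSG2 on the log2 scale thus lies within the error. The 2 cadherins summed to 36.9 ± 3.26 FPKM with si NC and 37.0 ± 4.27 with PLOD3 siRNA (SD, n = 3 each). The opposite-strand genes that overlap them had counts of 4 to 29 (DSG2-AS1) and 0 to 8 (DSCAS), against at least 11329 for DSG2 and 2889 for DSC2.

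Of the plaque proteins, JUP, which binds the cadherin tails and also serves in adherens junctions (ENSG00000173801, chromosome 17, 41754604 to 41786931), showed the largest fall of the 10 genes without a GC correction, and the largest after KRT20 with the GC offset (-0.73 against -1.08). In si NC it stood at 54.1, 54.2 and 53.6 FPKM, and with PLOD3 siRNA at 22.4, 22.2 and 34.2. The third PLOD3 siRNA sample was the highest of its group but well below any control. The log2 fold change was -1.04 (SE 0.164, interval -1.43 to -0.64, edgeR adjusted p = 0.00605), and without PLOD3 siRNA replicate 3 it was -1.25. All 6 leave-one-out fits, each without 1 sample, called JUP, at an adjusted p of 0.00346 to 0.0241.

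DSP, which anchors keratin filaments to the plaque (ENSG00000096696, chromosome 6, 7541617 to 7586714), stood at 28.2, 25.9 and 27.4 FPKM with si NC, against 21.6, 16.9 and 23.1 with PLOD3 siRNA. The groups did not overlap, and PLOD3 siRNA replicate 2 was the lowest sample. DSP fell by 0.40 on the log2 scale (SE 0.104, edgeR adjusted p = 0.0262). Its call was lost without any one of the si NC samples or without PLOD3 siRNA replicate 1 (edgeR adjusted p = 0.0527 to 0.0771), and when limma was run on TPM (0.112), while its direction was the same.

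The plakophilins, which bind cadherin tails and desmoplakin side by side in the plaque, were lower in mean but not called. PKP3 (chromosome 11, 392614 to 400260) was at 16.5, 19.3 and 16.4 FPKM with si NC, against 14.8, 13.6 and 14.97 with PLOD3 siRNA. Its groups did not overlap, and its log2 fold change was -0.27 (edgeR adjusted p = 0.0654). PKP2 (chromosome 12, 32790755 to 32896777) was at 3.77, 2.81 and 3.55 and at 3.18, 2.36 and 2.66 FPKM, where the groups overlapped (-0.30, edgeR adjusted p = 0.138). Summed over JUP, DSP, PKP2 and PKP3, the plaque stood at 102 ± 0.828 FPKM with si NC and 64.0 ± 10.1 with PLOD3 siRNA (SD, n = 3 each), or 62.8% of the control, beside 100.2% for the cadherins. JUP alone went from 53.9 to 26.3 FPKM and made up most of that difference. With the GC offset PKP3 stood at 0.13, DSG2 at -0.19 and DSC2 at -0.31, so the contrast of plaque and cadherins depends on JUP and on the scaling.

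Among the keratins, KRT18 (ENSG00000111057, chromosome 12, 52948871 to 52952900), a type I partner of KRT8, stood at 154, 149 and 149 FPKM with si NC, against 101, 115 and 112 with PLOD3 siRNA. All PLOD3 siRNA samples were below all controls, and KRT18 fell by 0.46 (SE 0.0827, edgeR adjusted p = 0.00861). The call held in all 6 leave-one-out fits (adjusted p of at most 0.0362) but was lost with the GC offset (-0.26, edgeR adjusted p = 0.0529). KRT8 (ENSG00000170421, chromosome 12, 52897187 to 52949920), the only type II keratin of the set, was at 180, 136 and 172 FPKM and at 117, 145 and 167. Its groups overlapped, and the SD within each group, 23.4 and 25.2, was larger than the difference of the means (-0.18, interval -0.56 to 0.20, edgeR adjusted p = 0.404).

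KRT8 and KRT18 lie next to each other on opposite strands, and the table's spans overlap by 1050 bases, which is 26.1% of the KRT18 span. In GENCODE, 525 exonic bases belong to both, or 16.3% of the KRT18 exons and 7.63% of the KRT8 exons. Without a stated strand setting, reads there cannot be assigned to one of the 2 genes. Both also have many processed copies elsewhere in the genome: the table lists 51 named after KRT8 and 67 after KRT18. Their summed counts came to 1.82% to 2.68% of the KRT8 count and 0.300% to 0.643% of the KRT18 count, and adding them changed no call among the 10 genes.

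KRT19, the smallest keratin, which lacks most of the usual tail (ENSG00000171345, chromosome 17, 41523617 to 41528308), had the highest FPKM of the 10 genes. It was at 271, 275 and 275 FPKM with si NC, against 233, 226 and 241 with PLOD3 siRNA. The groups did not overlap, and it fell by 0.23 (SE 0.0621, edgeR adjusted p = 0.0315). This call had the highest adjusted p of the 5 and was lost in each of the 6 leave-one-out fits (edgeR adjusted p = 0.0523 to 0.115). With the GC offset KRT19 stood at 0.09. The sum of KRT18, KRT19 and KRT20 was 427 ± 0.614 FPKM with si NC and 343 ± 10.0 with PLOD3 siRNA (SD, n = 3 each), 80.4% of the control. KRT19 made up 64.1% of that sum with si NC on average. The sum carries no GC correction, so its fall depends on the scaling.

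KRT20 (ENSG00000171431, chromosome 17, 40875889 to 40885242) was the lowest of the 10 genes and, after JUP, had the largest fall without a GC correction. It stood at 2.64, 1.94 and 2.28 FPKM with si NC, against 0.910, 1.35 and 1.11 with PLOD3 siRNA, with no overlap. Its counts were 338, 285 and 392 against 149, 171 and 138, the fewest of the set. The log2 fold change was -1.005 (SE 0.211, interval -1.51 to -0.50, edgeR adjusted p = 0.0138), and all 6 leave-one-out fits called it (adjusted p of at most 0.0459).

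In order of mean FPKM in si NC, the genes ran KRT19, KRT8, KRT18, JUP, DSG2, DSP, PKP3, DSC2, PKP2 and KRT20. Neighbours whose si NC samples overlapped were KRT8 and KRT18, and DSC2 and PKP2. In PLOD3 siRNA the means of JUP and DSG2 changed places, at 26.3 ± 6.88 and 32.9 ± 3.79 FPKM (SD, n = 3 each), with overlapping samples. FPKM depends on the length the authors divided by. Relative to the median gene, the count per FPKM implied a length for KRT8 that was 2.01 times its longest coding GENCODE transcript, while the same ratio was 0.724 to 1.29 for the other 9 genes. The level of KRT8 against the other genes is therefore uncertain by about that factor, whereas its change between groups does not depend on it.

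Ratios within a sample were compared for 8 pairs of genes. The ratio of JUP to DSP was 1.92, 2.09 and 1.95 with si NC and 1.04, 1.32 and 1.48 with PLOD3 siRNA. JUP against its close relative CTNNB1 (beta-catenin, which takes the same place in adherens junctions) went from 2.24, 2.45 and 2.29 to 0.831, 0.889 and 1.29, a mean log2 change of -1.24. CTNNB1 itself was at 24.1, 22.1 and 23.4 FPKM and at 27.0, 24.97 and 26.6 (log2 0.18, edgeR adjusted p = 0.0528), and at -0.0050 with the GC offset described further on (0.953). With that offset JUP stood at -0.73 and DSP at -0.42, so JUP lay closer to both CTNNB1 and DSP than in these ratios, which carry no GC correction. DSG2 to DSP went from between 1.17 and 1.26 to between 1.497 and 1.69, and KRT19 to KRT18 from between 1.76 and 1.84 to between 1.97 and 2.31. Groups did not overlap in these 4 ratios, each with an exact two-sided permutation p of 0.1, the smallest that 3 against 3 samples allow, and 0.2 after Benjamini-Hochberg adjustment over the 8 ratios compared. In the other 4 (KRT8 to KRT18, DSG2 to DSC2, PKP3 to PKP2 and KRT8 to DSP) the groups overlapped (exact p = 0.2 to 0.8). DSG2 to DSC2 stood at 7.01 to 8.58 with si NC and at 7.73 to 8.29 with PLOD3 siRNA.

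**Figure D2:**
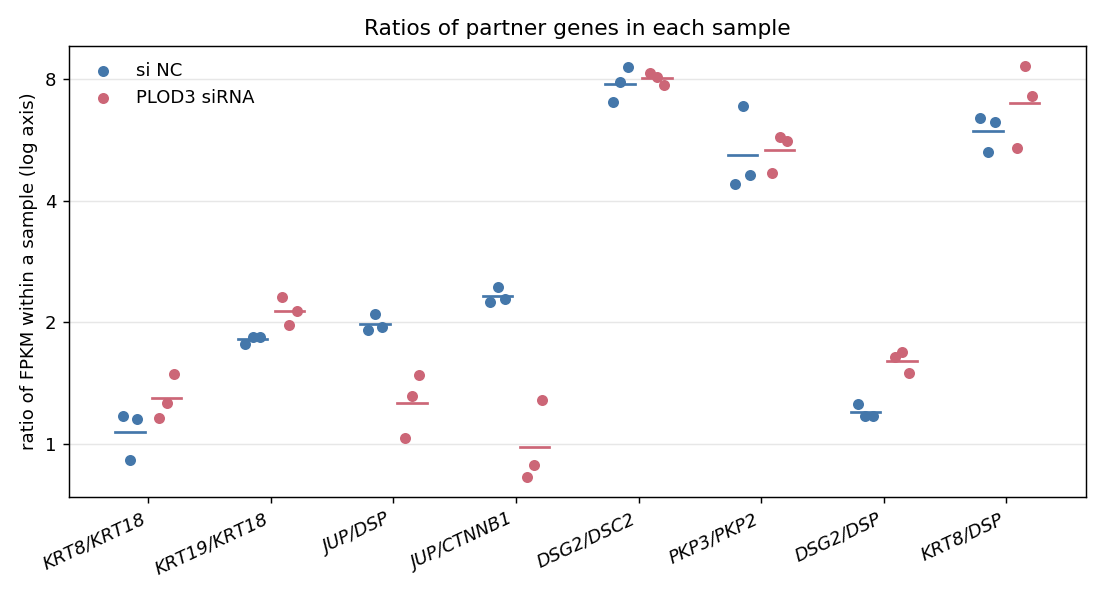
Ratio of the FPKM of 2 genes within each sample (log axis) for 8 pairs, si NC in blue and PLOD3 siRNA in red, with a line at the geometric mean of each group. The JUP to CTNNB1 ratio lay above 2 in the 3 controls and at 0.831 to 1.29 with PLOD3 siRNA, while DSG2 to DSC2 overlapped.

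GC content moved with the fold change across the table and touches these genes. In the 1197 tested genes with the lowest GC content the median log2 fold change was 0.29, and in the 1197 with the highest it was -0.36. GC content was 61.5% for JUP, 61.8% for KRT19 and 66.7% for PKP3, against 38.9% for DSC2 and 42.0% for DSG2. With an offset per sample that follows this trend, JUP stood at -0.73 (edgeR adjusted p = 0.0187), DSP at -0.42 (0.0244) and KRT20 at -1.08 (0.0133), and all 3 were still called. KRT18 went to -0.26 and lost its call (edgeR adjusted p = 0.0529), but kept it with an offset for GC and transcript length (-0.35, edgeR adjusted p = 0.0115). KRT19 turned from -0.23 to 0.09 (0.289) and PKP3 from -0.27 to 0.13 (0.147), while DSG2 went to -0.19 (0.136) and DSC2 to -0.31 (0.0968). With the GC offset the median of the 10 was -0.28 beside 0.0090 for all tested genes.

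**Figure D3:**
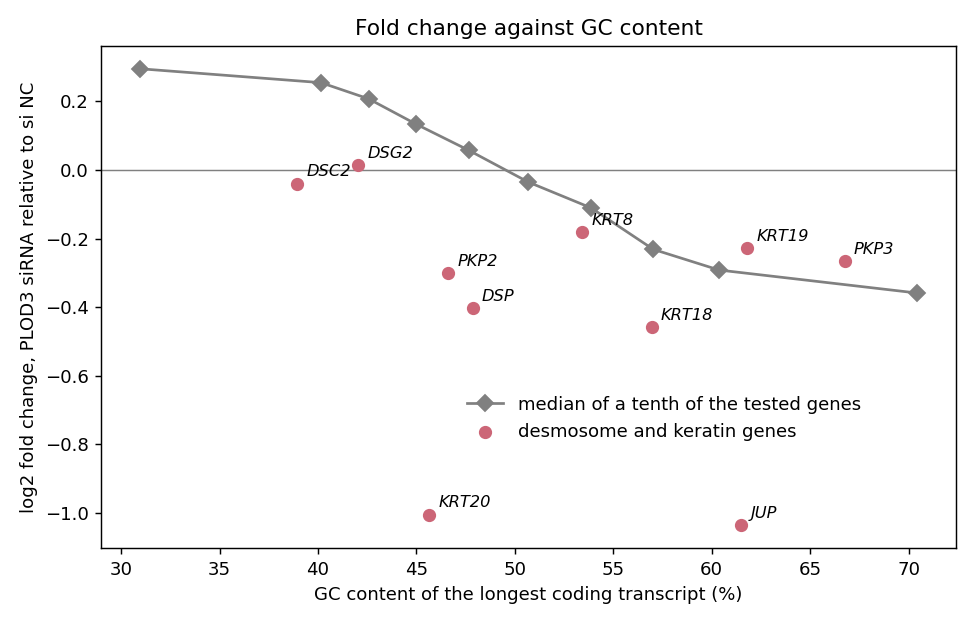
Log2 fold change of the 10 genes (red) against the GC content of their longest coding transcript in percent, with the median of each of 10 groups of tested genes ordered by GC content (grey). The medians run from 0.29 to -0.36, and JUP and KRT20 lie furthest below them.

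**Figure D4:**
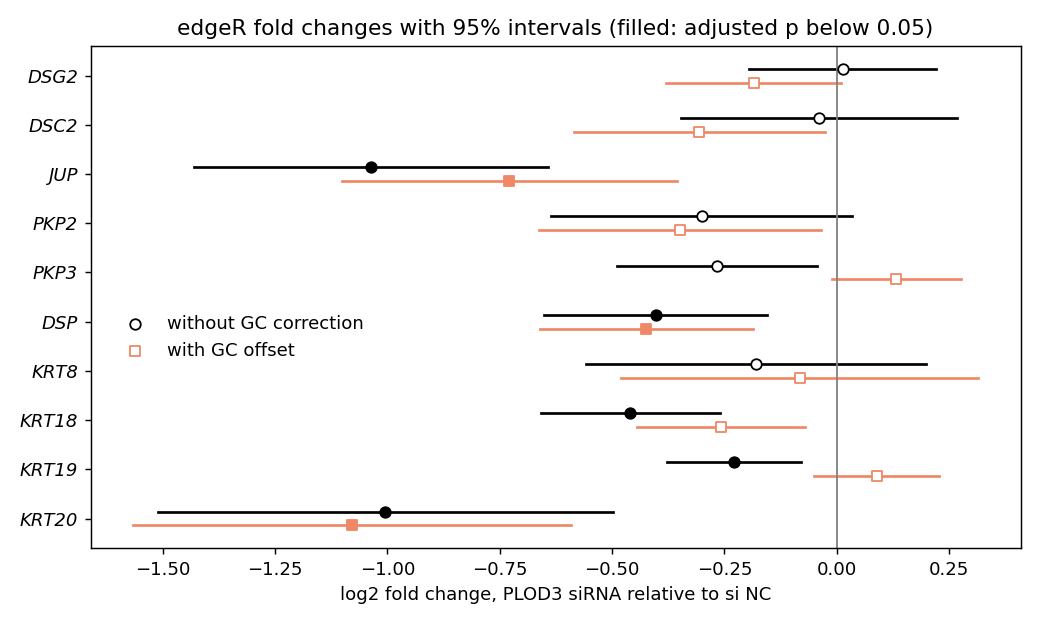
Log2 fold changes of the 10 genes with 95% intervals from edgeR, without a GC correction (black circles) and with the GC offset (orange squares), filled where the adjusted p is below 0.05. JUP, DSP and KRT20 are filled in both fits, and KRT19 and PKP3 change sign.

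PPL, PERP and PKP4, which also belong to desmosomes or plaques, were lower. Of 11 further desmosome and envelope plaque genes, 5 were tested, 3 were lower and 0 higher (also 0 at an unadjusted p below 0.05 and in DESeq2), with a median log2 fold change of -0.56, where 19.3% of all tested genes were lower and 16.2% higher. PPL (periplakin), which links plaques to keratin, was at 14.8, 14.7 and 14.3 FPKM with si NC, against 7.88, 6.54 and 8.43 with PLOD3 siRNA (-0.93, edgeR adjusted p = 0.00239). PERP, a membrane protein of desmosomes and a p53 target, fell by 0.56 (59.5, 50.0 and 58.9 to 38.0, 37.7 and 37.8 FPKM). Both were called with the GC offset and in all 6 leave-one-out fits. PKP4 fell by 0.31, a call lost in all of those fits. DSC3 (0.24) and EVPL (-0.77) were not called. The 6 genes of stratified epithelium and skin in this list, DSG1, DSG3, DSG4, DSC1, PKP1 and CDSN, were each at a mean of at most 0.138 FPKM in either group and were not tested.

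Of 20 further keratins, 6 were tested, 2 were lower and 1 higher, with a median of -0.20. With so few genes these counts lie close to the 19.3% lower and 16.2% higher of all tested genes. KRT23, a type I keratin, went from 21.5, 16.2 and 22.5 FPKM to 6.44, 6.33 and 6.31 (-1.65, edgeR adjusted p = 0.00182), and -1.62 with the GC offset. KRT15, a keratin of basal and progenitor cells, rose by 0.61 (1.40 ± 0.132 to 2.13 ± 0.160 FPKM, SD, n = 3 each). KRT13 fell by 0.97, a call kept only without si NC replicate 2 or PLOD3 siRNA replicate 3 among the leave-one-out fits, and lost with the GC offset at a fold change of -0.75 (edgeR adjusted p = 0.0779). KRT7 (0.13), KRT80 (-0.35) and KRT10 (-0.06) were not called. Of 10 other intermediate filament genes, 7 were tested, with 3 lower and 1 higher, beside the same 19.3% and 16.2% of all tested genes. DES (-1.80) and SYNM (-0.98), best known from muscle, and NES (-0.98), a progenitor cell filament, fell, and the lamin LMNB1 rose by 0.40. LMNB1 was called in 2 of the 6 leave-one-out fits (without si NC replicate 1 or PLOD3 siRNA replicate 1). LMNB2 was not called (0.05), but with the GC offset it was called higher (0.36, edgeR adjusted p = 0.00879). VIM, the mesenchymal filament, was at 2.73 ± 1.61 and 0.872 ± 0.293 FPKM (SD, n = 3 each, edgeR adjusted p = 0.0642), and was called lower in DESeq2 (adjusted p = 0.0403).

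Genes that hold or modify keratin filaments were divided. Of 6 linkers and keratin-bound proteins, 2 were lower and 2 higher, where 19.3% of all tested genes were lower and 16.2% higher. PNN (pinin), first described at desmosomes and mostly a nuclear splicing-associated protein, rose from 48.3, 38.1 and 46.4 FPKM to 84.4, 78.9 and 83.7 (0.90, edgeR adjusted p = 0.00254). The kinase CSNK1A1 rose by 0.29, a call lost with the GC offset (edgeR adjusted p = 0.803) and kept only without si NC replicate 1 or PLOD3 siRNA replicate 2. EPPK1 (epiplakin) fell by 0.71 and the filament crosslinker MACF1 by 0.47. EPPK1 lost its call with the GC offset (-0.31, edgeR adjusted p = 0.0892), and MACF1 without si NC replicate 1 or 3. Of 8 tested hemidesmosome genes, which tie keratin to the matrix, 3 were lower and 0 higher, against 19.3% and 16.2% of all tested genes. At an unadjusted p below 0.05 and in DESeq2, 0 were higher too. The 3 were ITGB4 (-1.12), LAMB3 (-0.78) and the keratin linker PLEC (-0.47). The PLEC call was lost with the GC offset (-0.07, edgeR adjusted p = 0.501).

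Genes of the neighbouring junctions were counted in the same way, and no difference between lists was tested. Of 10 adherens junction genes 5 were lower and 0 higher (1 at an unadjusted p below 0.05 and 1 in DESeq2), where 19.3% of all tested genes were lower and 16.2% higher. Their median was -0.38, and NECTIN1, CDH3 and NECTIN2 led in order of p. VCL and CDH1 were the other 2 called, CDH1 in 2 of the 6 leave-one-out fits (without si NC replicate 2 or PLOD3 siRNA replicate 3). Of 12 tested tight junction genes 3 were lower (CLDN3, TJP3 and CGN), a share near the 19.3% of all tested genes, and 0 higher (1 at an unadjusted p below 0.05 and 0 in DESeq2), with a median of -0.13. CGN (-0.71) lost its call with the GC offset at a fold change of -0.53 (edgeR adjusted p = 0.0916) and without si NC replicate 1 or 3 or PLOD3 siRNA replicate 1 or 2.

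Of 6 kinases and sheddases that act on desmosomes, 3 were lower and 1 higher, where 19.3% of all tested genes were lower and 16.2% higher. EGFR fell by 0.71 and protein kinase C alpha (PRKCA), which loosens desmosomal adhesion, by 0.51, both called with the GC offset. SRC fell by 0.27, a call lost with the GC offset (-0.0046, edgeR adjusted p = 0.970) and kept only without PLOD3 siRNA replicate 3. The sheddase ADAM9 rose by 0.31, lost with the GC offset (0.514) and kept only without si NC replicate 1 or PLOD3 siRNA replicate 3. ADAM10 and ADAM17, the main desmoglein sheddases, were not called (-0.18 and -0.12), but with the GC offset ADAM10 was called lower (-0.46, edgeR adjusted p = 0.00786).

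KRT20 is a marker of differentiated colonocytes, and other genes of that kind were counted beside it. Of 14 colonocyte differentiation genes, 11 were below the filter and 0 of the 3 tested were called in either direction (also 0 at an unadjusted p below 0.05 and in DESeq2). Calls in either direction made up 35.5% of all tested genes. CDX2 was at 3.88 ± 0.369 and 3.27 ± 0.232 FPKM (SD, n = 3 each, log2 -0.25, edgeR adjusted p = 0.143), CA2 stood at 0.19 and KLF4 at 0.12 on the log2 scale. Of 8 tested epithelial transcription and splicing factors, 1 was lower and 1 higher, beside 19.3% lower and 16.2% higher of all tested genes. KLF5, a factor of proliferating intestinal epithelium, was lower (-0.82) and GRHL1, a grainyhead factor that acts on desmosomal cadherin genes, was higher (0.45). GRHL1 lost its call without si NC replicate 3 or PLOD3 siRNA replicate 1. ESRP1, an epithelial splicing factor, was at -0.17 and not called, but was called lower with the GC offset (-0.34, edgeR adjusted p = 0.0154). SNAI1, the 1 of 5 mesenchymal transcription factors above the filter, fell by 0.56. It lost its call with the GC offset (-0.31, edgeR adjusted p = 0.120) and kept it only without si NC replicate 1 or PLOD3 siRNA replicate 2.

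**Figure D5:**
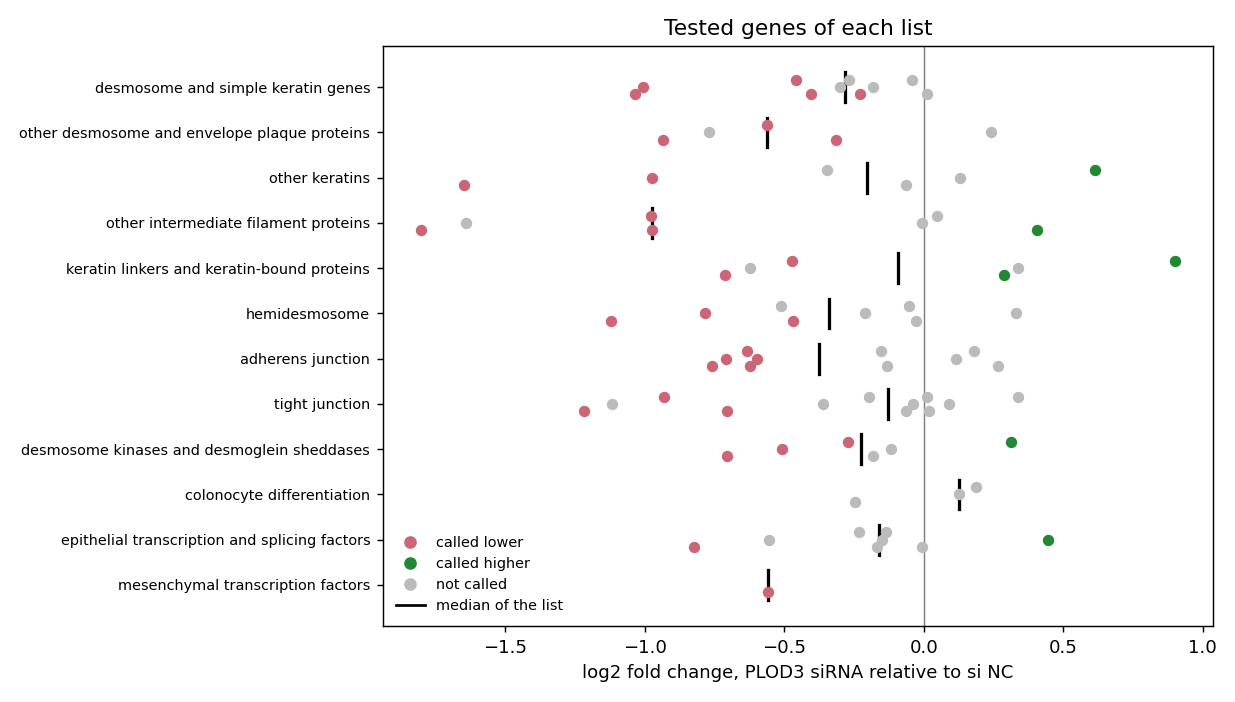
Log2 fold change of every tested gene in the 10 desmosome and keratin genes and in 11 related lists, coloured by the edgeR call, with the median of each list as a black bar. The medians run from -0.98 for other intermediate filaments to 0.12 for colonocyte differentiation, and PNN at 0.90 is the highest point.

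The genes whose values over the 6 samples were most like those of JUP were ITGB4, FGF19, TRNP1, TUBB4A and SOX9, out of 3420 with a mean of at least 10 FPKM. Likeness was the root mean square difference of log2(FPKM + 1), centred on the si NC mean, and ran from 0.0929 for ITGB4, the hemidesmosomal integrin subunit, to 0.172 for SOX9. ITGB4 was at 25.4, 28.97 and 28.1 FPKM with si NC, against 11.5, 11.3 and 15.2 with PLOD3 siRNA, with the third PLOD3 siRNA sample the highest of its group as for JUP. FGF19 went from 17.5 ± 0.803 to 8.03 ± 0.675 FPKM (SD, n = 3 each).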

How the data were processed

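RNA-seq values of 3 si NC and 3 PLOD3 siRNA samples were analysed, with each group and replicate number taken from the sample titles. The authors deposited 1 table with 12 value columns, an FPKM and an estimated count per sample, per the file headers. FPKM were not scaled further between samples, and 0.0001 was listed for genes without reads. The estimated counts are whole numbers, not normalized, and were used as deposited. Low counts pile up at 4 (on average 1490 genes per sample, against 558 at 3 and 312 at 5), so counts overstate read pairs. StringTie 1.3.4d, HISAT2 2.0.4 and cutadapt 1.9 are listed in the submitters' processing notes. Build, annotation and strand setting were not given in the sources used here. By identifier, 58394 of 60612 genes were found in GENCODE (GRCh38) and 99.90% of these lay at their annotated position, so coordinates are read as GRCh38.

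Genes with a mean of at least 1 FPKM (12000) were tested with edgeR 4.0.16 in R 4.3.3 (TMM, quasi-likelihood, two-sided, all 6 samples, no covariate, Benjamini-Hochberg). The SE is the fold change divided by the root of the F statistic. DESeq2 1.42.0, limma 3.58.1 on log2(FPKM + 1), log2(FPKM + 0.1) and log2(TPM + 1), other scalings and filters, counts divided by 4, GC and length offsets (loess, span 0.5, GENCODE transcripts, 11968 genes with a value), processed copies added, a replicate block and leaving out each sample were alternatives. The fitting script was checked on simulated data. The 10 genes and the lists were chosen with earlier results of these data known. In each list the text names up to 3 tested genes with the smallest p and all called genes where 5 or fewer were called. Other list genes it names were chosen after their values were seen. Genes like JUP are the 5 nearest by the stated measure. Promoters come from RefSeq, GRCh38.p14.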

Additional observations from a re-analysis of the deposited data

How the results depend on the processing

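The count of lower genes among the 10 was 5 by edgeR. It was 3 with no filter on low values, in limma on log2(TPM + 1), with the GC offset and with the GC offset and replicate block. With the GC and length offset it was 4, where KRT18 was called (-0.35, edgeR adjusted p = 0.0115) and KRT19 was not. The count of lower genes ranged from 3 to 4 over the 6 fits that left out a sample, and the count of higher genes was 0 in every fit run. Over all tested genes, 4264 of 12000 were called, 2546 of the 6095 genes left by a filter of 5 FPKM, 2247 with the GC offset and replicate block, and 2613 to 3662 when a sample was left out, lowest without si NC replicate 3 (2615) and without PLOD3 siRNA replicate 1 (2613). In limma on log2(TPM + 1) the median of all tested genes shifted to 0.095, and 62.8% of calls were higher against 45.6% in edgeR.

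Some fold changes changed sign. KRT19 stood at 0.09 with the GC offset, also with the replicate block (0.089). PKP3 stood at 0.13 with the GC offset, with it and the replicate block, and with the GC and length offset (0.13), and was called lower at a mean FPKM of at least 5 (-0.31, edgeR adjusted p = 0.0357). DSG2 stood at -0.19 with the GC offset, -0.19 with the replicate block added, -0.043 with the GC and length offset and -0.029 at a mean FPKM of at least 5, and ranged from -0.036 to 0.084 when a sample was left out. DSC2 stood at 0.060 in limma on log2(TPM + 1) and ranged from -0.11 to 0.090 when a sample was left out. The cause was not tested. JUP was called lower in every fit run, and KRT20 in every fit that tested it (a mean of at least 5 FPKM left out KRT20, DSC2 and PKP2).

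Same-numbered samples did not deviate together (correlations of deviations 0.049, -0.011 and -0.023). With 3 samples per group this cannot show whether samples of the same number were prepared together, and the labels do not say. With the replicate block 4 of the 10 genes were lower and KRT19 was not called (edgeR adjusted p = 0.0521), and calls over all genes went to 3305. Not every sample correlated best with its own number. KRT20, with the fewest estimated counts of the 10 genes (138 to 392), also had the largest SE (0.211). The part of depth in this was not tested.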
